A study of Mus musculus with 56 samples.

Results

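Expression of 9 genes of the sebaceous gland and the upper hair follicle was followed across 7 sorted cell populations of mouse back skin: Mc5r, Mgst1, Pparg, Scd1, Cidea, Plin2, Lrig1, Plet1 and Defb6. The genes were taken by symbol, and all 9 were found among the 24062 genes of the deposited expression table. All 9 passed the filter on low values, which asked for 1 RPKM or more in 2 or more libraries and left 16731 genes.

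The populations were sorted by flow cytometry from dorsal skin of mice at postnatal day 22, an age in the resting to early growth stage of the hair cycle. All of the mice carried the same reporters, K14-H2BGFP;Crabp1-GFP;Lef1-RFP, and the label for genotype reads CD1 throughout, so every population below shares this background. The keratin 14 promoter marks basal keratinocytes, and the Crabp1 and Lef1 reporters mark parts of the dermis and the hair follicle. The populations were Foll (labelled as upper hair follicle, epithelial), DP (dermal papilla, the mesenchymal cluster at the follicle base), BuSC (bulge stem cells), HGSC (hair germ stem cells), Epi (epidermis), DF (dermal fibroblasts) and Neg (the negative fraction, labelled mixed). Each was collected from 4 back skin zones, Z1 to Z4, in 2 replicates that the labels call biological, which gave 8 libraries for each population and 56 libraries in all. No source used here states the gates of the sort, where on the back each zone lay, or whether animals were pooled. No population was labelled as sebaceous gland.

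The sebaceous gland sits on the upper follicle, above the bulge. Its cells, the sebocytes, fill with lipid droplets and then burst to release sebum. The nuclear receptor PPAR gamma, encoded by Pparg, drives lipid storage programmes in sebocytes and in fat cells. Scd1 encodes a desaturase that makes monounsaturated fatty acids, and mice that lack it have wasted sebaceous glands. Plin2 coats lipid droplets, and Cidea is a droplet protein that helps droplets fuse. Mc5r is the melanocortin receptor whose loss lowers sebum output in mice. Mgst1 is a membrane-bound glutathione transferase. Lrig1, a negative regulator of EGF receptor signalling, marks stem cells of the junctional zone where the gland meets the follicle. Plet1 encodes a surface protein recognised by an antibody used to isolate upper follicle cells. Defb6 encodes a beta-defensin, a small secreted antimicrobial peptide.

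Library totals, recovered from the steps between low RPKM values, ran between 3.24 and 87.8 M reads with a median of 14.7 M, and the shallowest library was Foll zone 4 replicate 2. Of the 56 libraries, 52 were nearest to a library of their own population. The 4 others were replicate 2 of Foll zones 1, 3 and 4 and of Epi zone 3, so values without these 4 are given where a call depends on them. Krt14, the basal keratin, lay between 884 and 1370 RPKM in Foll, against 1040 to 2270 RPKM in Epi and no more than 5.11 RPKM in DP. Krt79, a keratin of the follicle opening and gland duct, averaged 139 ± 41.1 RPKM in Foll and 44.7 ± 14.3 RPKM in Epi (SD, n = 8 each). It was picked from a list of 10 upper follicle genes. Of these 10, by the thresholds given below, 3 were called higher in Foll than in Epi, 1 lower and 6 not. The counts against HGSC were also 3, 1 and 6. Markers of interfollicular epidermis were not absent from Foll, where their summed level was 1260 to 6370 RPKM, against 4120 to 6610 RPKM in Epi. Marker sums of other cell types were also present in Foll: immune cell markers summed to 143 to 578 RPKM in Foll, against 8.39 to 380 RPKM in Epi. Fibroblast markers summed to 102 to 1490 RPKM in Foll, against 21.9 to 143 RPKM in Epi, and endothelial markers to 2.49 to 26.7 RPKM in Foll, against 0.105 to 0.659 RPKM in Epi. The part of these cells in the results below was not tested. In bulk libraries, fewer cells of a type and less RNA per cell cannot be told apart.

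The 9 genes are all protein coding in the RefSeq annotation of GRCm38.p6, the same assembly as the mm10 build in the submitters' notes. Plin2 lies at chr4:86626910-86670217, Lrig1 at chr6:94604529-94700298, Pparg at chr6:115360879-115490404 and Mgst1 at chr6:138140527-138156755. Defb6 lies at chr8:19225478-19228209, Plet1 at chr9:50494525-50505639 and Scd1 at chr19:44394450-44407709. RefSeq promoter windows were held for 6 of the 9 genes. The 250 bases before an annotated transcript start are printed below for 4 of them, because these 4 contrast lipid genes with follicle genes that reach their highest mean level in the same population. Capitals mark matches to AGGTCA or its reverse complement TGACCT, the sequence that nuclear receptors such as PPAR gamma and its partner RXR recognise in pairs, and to TATAA or its reverse complement TTATA. The Plet1 and Defb6 windows end just before the gene. The Pparg window lies inside the span annotated for the gene and the Plin2 window partly inside it, so neither is wholly upstream of the gene.

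Plin2 (chr4:86670060-86670309, minus strand): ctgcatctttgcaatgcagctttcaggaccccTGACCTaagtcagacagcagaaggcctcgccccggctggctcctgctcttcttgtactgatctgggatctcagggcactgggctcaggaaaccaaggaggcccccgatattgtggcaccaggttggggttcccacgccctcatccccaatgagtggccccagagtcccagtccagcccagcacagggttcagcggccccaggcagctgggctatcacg

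Pparg (chr6:115360894-115361143, plus strand): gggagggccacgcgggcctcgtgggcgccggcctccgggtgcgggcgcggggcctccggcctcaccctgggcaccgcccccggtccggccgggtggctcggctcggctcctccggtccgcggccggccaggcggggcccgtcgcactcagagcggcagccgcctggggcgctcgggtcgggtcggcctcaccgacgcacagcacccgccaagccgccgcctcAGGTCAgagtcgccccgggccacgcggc

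Plet1 (chr9:50494275-50494524, plus strand): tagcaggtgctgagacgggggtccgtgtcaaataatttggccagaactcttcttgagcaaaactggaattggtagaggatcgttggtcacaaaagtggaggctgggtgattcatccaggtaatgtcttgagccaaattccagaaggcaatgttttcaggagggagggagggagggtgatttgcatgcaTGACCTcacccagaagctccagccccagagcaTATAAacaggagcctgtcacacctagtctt

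Defb6 (chr8:19225228-19225477, plus strand): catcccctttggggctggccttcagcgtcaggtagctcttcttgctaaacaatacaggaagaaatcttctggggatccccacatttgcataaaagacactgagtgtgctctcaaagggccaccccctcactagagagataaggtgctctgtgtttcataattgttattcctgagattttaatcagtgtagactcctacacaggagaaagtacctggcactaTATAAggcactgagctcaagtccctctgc

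AGGTCA was found on either strand in 3 of the 6 genes with a window, Plin2, Pparg and Plet1, and among all RefSeq genes 15.8% had it in a window of the same length. Some genes had more than 1 window. By window it was found in 4 of 9, against 14.0% of all windows. A second Pparg window, not printed, held it 9 bases before its start, and another Pparg window held none. The match began 218 bases before the transcript start in Plin2, 28 in the Pparg window shown and 62 in Plet1. The direct repeat known as DR1, a pair of AGGTCA matches in the same direction with 1 base between them, occurred in no window of the 6 genes and in 11 of 32851 windows of all genes. TATAA was found in Defb6, 29 bases before the start, and in Plet1, 30 bases before it, as well as in a second Pparg window, where 25.8% of all genes had it. The AGGTCA and TATAA matches did not overlap. A match describes these letters and is not a binding site, and no match says only that the letters are not in this window.

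The mean level was highest in Foll for 8 of the 9 genes, whereas 11.3% of all genes tested had their highest mean there. The exception was Mc5r, whose mean was highest in DP, as for 17.6% of all genes. Levels are in RPKM, which the authors scaled by gene length and by library total, so that they can be set beside each other between genes. Within Foll, Scd1 had the highest mean level of the 9 genes, followed by Mgst1 and Plin2, and Cidea had the lowest.

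**Figure D1:**
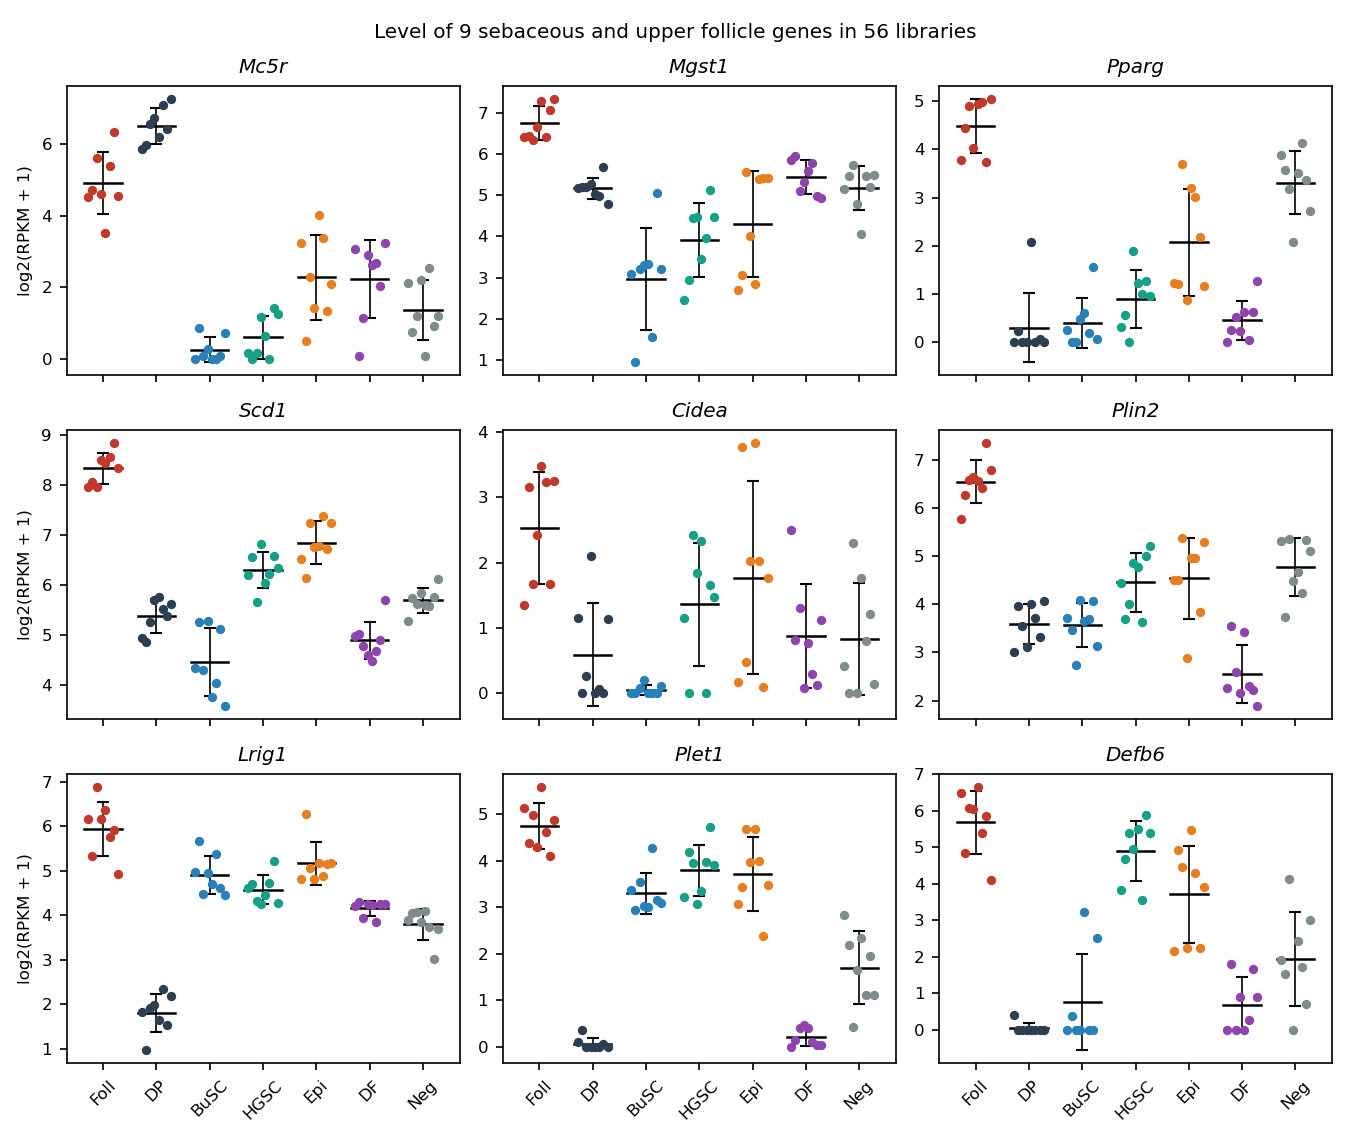
Levels of the 9 genes as log2(RPKM + 1) on the y axis, by population on the x axis. Each point is 1 library (8 per population, zone 1 to zone 4 left to right), black lines are means and bars are SD. The Foll mean is highest for 8 genes, and for Mc5r the DP mean is above the Foll mean.

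Scd1, the fatty acid desaturase, was the most abundant of the 9 genes in Foll. Its level in the 8 Foll libraries had a lowest value of 246, a median of 332 and a highest value of 456 RPKM, against 69.2, 108 and 166 RPKM in Epi, the population with the next mean. No Foll library overlapped with any library of the other 6 populations. The Scd1 mean was 327 ± 72.4 RPKM in Foll and 118 ± 33.8 RPKM in Epi (SD, n = 8 each), a ratio of 2.76, and the difference on the log2(RPKM + 1) scale was 1.48 ± 0.19 (SE, limma adjusted p = 1.29e-06). Below Epi came HGSC with 80.1 ± 19.5, Neg with 51.5 ± 9.02, DP with 41.8 ± 9.42, DF with 29.8 ± 9.36 and BuSC with 23.4 ± 11.2 RPKM, and none of these neighbours in the order passed both thresholds against each other.

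Plin2, the droplet coat gene, had 53.2 RPKM at the lowest, 93.7 at the median and 162 at the highest in Foll libraries, against 12.3, 29.0 and 39.7 RPKM in Neg. The 2 ranges did not meet. The mean was 96.3 ± 31.3 RPKM in Foll and 28.4 ± 10.7 RPKM in Neg, and the log2 difference was 1.77 ± 0.30 (limma adjusted p = 8.77e-06). Against Epi, where Plin2 averaged 25.3 ± 11.9 RPKM, the log2 difference was 2.00 ± 0.30 (limma adjusted p = 1.37e-05). DF held the lowest Plin2 mean, 5.38 ± 3.06 RPKM.

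Pparg, the receptor of the lipid storage programme, had lower levels than Scd1 and Plin2 in Foll. In Foll its lowest, median and highest values were 12.4, 24.8 and 32.0 RPKM, against 3.20, 9.87 and 16.6 RPKM in Neg and 0.822, 2.44 and 12 RPKM in Epi. The Foll libraries overlapped with those of Neg but not with those of the other 5 populations. Pparg averaged 22.9 ± 8.43 RPKM in Foll, 4.44 ± 4.18 RPKM in Epi and at most 1.01 RPKM in HGSC, DP, DF and BuSC. It was listed at 0 in 5 of the 8 DP libraries, where 3 reads would have given 0.0582 to 0.131 RPKM. The Pparg difference Foll minus Epi was 2.42 ± 0.34 on the log2 scale (limma adjusted p = 4.5e-06), and Foll minus Neg was 1.18 ± 0.34 (limma adjusted p = 0.0048).

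The summed level of 8 fat cell markers was 3.55 to 21.1 RPKM in Foll libraries, against 182 to 378 RPKM in libraries of Neg, which held the next Pparg mean. Most of the sum in Neg was Fabp4, which endothelium also expresses, with a mean of 9.79 ± 6.12 RPKM in Foll and 257 ± 86.3 RPKM in Neg. Among the other fat cell markers, Lep and Retn were listed at 0 in all libraries of both populations. Adipoq was at 0 in all 8 Foll libraries with a mean of 1.31 RPKM in Neg, and Plin1 averaged 0.0331 RPKM in Foll and 1.10 RPKM in Neg. Cidec was at most 1.18 RPKM in any library, and Cfd and Lipe are not given singly. Of the 8 markers, 4 had a mean under 1 RPKM in Neg and 6 in Foll. The endothelial marker sum was 2.49 to 26.7 RPKM in Foll and 129 to 250 RPKM in Neg. The part of either cell type in the Pparg level of Neg was not tested. Without the 4 libraries that were nearest to another population, the Pparg difference Foll minus Neg was 0.93 and lost its call (limma adjusted p = 0.0699), and it also lost it under a median-of-ratios scaling (0.98, adjusted p = 0.0149) and with a pseudocount of 0.1 (1.27, adjusted p = 0.14).

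Mgst1, the glutathione transferase, was higher in Foll than in each other population. Its lowest, median and highest levels were 80.6, 92.6 and 160 RPKM in Foll, against 29.5, 43.0 and 61.0 RPKM in DF, which held the next mean. Every Foll library was above every library of each other population. The mean was 110 ± 33.5 RPKM in Foll, 43.9 ± 12.5 in DF, 36.8 ± 11.5 in Neg, 35.5 ± 6.97 in DP, 25.6 ± 18.6 in Epi, 16.6 ± 9.6 in HGSC and 9.63 ± 9.71 in BuSC. The Mgst1 difference Foll minus DF was 1.30 ± 0.32 (limma adjusted p = 6.42e-04). It was no longer called after quantile scaling (0.60, adjusted p = 0.1) or median-of-ratios scaling (0.26, adjusted p = 0.527). The median difference of all genes for Foll minus DF was 0.51 on the deposited values, 0.08 after quantile scaling and -0.02 after median-of-ratios scaling.

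Cidea, the droplet fusion gene at chr18:67343564-67367794, was the least abundant of the 9 genes in Foll. It had 1.56 RPKM at the lowest, 6.17 at the median and 10.1 at the highest in Foll, against 0.0686, 2.73 and 13.3 RPKM in Epi, so the Epi range enclosed that of Foll. The mean was 5.67 ± 3.47 RPKM in Foll and 4.39 ± 5.45 RPKM in Epi (SD, n = 8 each), and the log2 difference of 0.76 had a 95% interval of -0.18 to 1.70 (limma adjusted p = 0.293). These levels rested on a median of 39 reads in Foll and 29 reads in Epi. In BuSC, Cidea was listed at 0 in 5 of 8 libraries, and all 8 Foll libraries lay above the highest BuSC library.

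Mc5r, the melanocortin receptor at chr18:68336744-68342446, followed a different order from the lipid genes. Its lowest, median and highest levels were 10.5, 24.4 and 80.9 RPKM in Foll, against 57.8, 88.7 and 153 RPKM in DP. The ranges overlapped through 1 Foll library, zone 4 replicate 1. The mean was 34.3 ± 22.2 RPKM in Foll and 95.9 ± 34.3 RPKM in DP (SD, n = 8 each). The difference Foll minus DP was -1.61 ± 0.42 on the log2 scale (limma adjusted p = 0.00202), and it lay below 0 within each of the 4 zones, between -2.20 and -1.31. With a pseudocount of 0.1 it was -1.64 and its adjusted p was 0.0662.

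Lef1 and Crabp1, the genes behind reporters used in the sort, were high in DP: Lef1 stood at 293 to 373 RPKM and Crabp1 at 440 to 1270 RPKM in DP, against 6.96 to 23.8 and 0.794 to 10.2 RPKM in Foll. Mc5r was called higher in DP than in each of the other 5 populations as well, with log2 differences of 4.24 over Epi to 6.27 over BuSC. In BuSC and HGSC, Mc5r was near the limit of counting, with means of 0.225 and 0.641 RPKM and 3 and 2 libraries at 0. Foll stood above Epi by 2.63 ± 0.42 (limma adjusted p = 3.32e-05), where Epi averaged 5.47 ± 5.08 RPKM. Within zone 3 that difference was 0.77, and in the other zones it was at least 2.75.

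Lrig1 and Plet1, the surface proteins of the upper follicle, had ranges in Foll that overlapped with the other epithelial populations. Lrig1 had a lowest level of 29.5, a median of 64.9 and a highest of 118 RPKM in Foll, against 27.0, 33.7 and 77.1 RPKM in Epi and 21.0, 27.5 and 50.3 RPKM in BuSC. The ranges overlapped with both. The Lrig1 mean was 65.4 ± 27.4 RPKM in Foll, 37.1 ± 16.5 in Epi, 30.3 ± 10.3 in BuSC and 23.4 ± 6.03 in HGSC. The difference Foll minus Epi was 0.77 ± 0.21 (limma adjusted p = 0.00795), below the size threshold of 1, and reached 1.04 without the 4 libraries nearest to another population (adjusted p = 0.00282).

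Lrig1 was lowest in DP, at 2.60 ± 0.979 RPKM, and its difference Foll minus DP was 4.15 ± 0.21 (limma adjusted p = 1.9e-18). Foll minus BuSC was 1.04 ± 0.21 (limma adjusted p = 2.26e-04), close to the size threshold. Leaving out any 1 of 7 libraries, replicate 1 of Foll zones 1 to 4 or of BuSC zones 1 to 3, put it at 0.91 to 0.98. Lrig1 was also above 13 RPKM on average in the dermal and mixed populations, with 17.0 ± 1.97 RPKM in DF and 13.3 ± 2.94 RPKM in Neg.

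Plet1 was near 0 in the mesenchymal populations and present in all epithelial ones. In Foll its lowest, median and highest levels were 16.2, 25.7 and 47.0 RPKM, against 4.19, 12.4 and 24.8 RPKM in Epi and 7.34, 14.2 and 25.2 RPKM in HGSC. Foll overlapped with both, and the means of 27.2 ± 10.1 RPKM in Foll, 13.8 ± 7.6 in Epi and 13.8 ± 5.79 in HGSC gave a log2 difference of 1.03 ± 0.26 against Epi (limma adjusted p = 0.00533) and of 0.95 ± 0.26 against HGSC (limma adjusted p = 0.00698, below the size threshold). Both values straddle the size threshold when a library is left out. Foll minus Epi was 0.89 to 0.99 without any 1 of 8 libraries (Foll zones 1 to 3 replicate 1, Foll zone 4 replicate 2, Epi zones 1 and 4 replicate 1, Epi zones 2 and 3 replicate 2), and 0.88 after quantile and 0.89 after median-of-ratios scaling. Foll minus HGSC was 1.03 to 1.07 without any 1 of 8 others (Foll zones 1 to 3 replicate 2, Foll zone 4 replicate 1, HGSC zones 1 and 3 replicate 2, HGSC zones 2 and 4 replicate 1), and 1.07 without the 4 libraries nearest to another population. It was also called with a pseudocount of 0.1 (1, limma adjusted p = 0.0483), after median-of-ratios scaling (1.047, adjusted p = 0.00329) and with the count-based voom (1.015, adjusted p = 0.0119). In DP, Plet1 averaged 0.0537 ± 0.102 RPKM with 5 of 8 libraries at 0, where 3 reads would have given 0.0625 to 0.141 RPKM.

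Defb6, the beta-defensin, was called higher in Foll than in BuSC and in Epi, and not than in HGSC. Its lowest, median and highest levels were 16.2, 60.8 and 100 RPKM in Foll, 10.8, 35.3 and 57.9 RPKM in HGSC and 3.46, 16.4 and 43.7 RPKM in Epi. All 3 ranges overlapped. The mean was 57.8 ± 28.8 RPKM in Foll, 32.8 ± 16.2 in HGSC, 17.2 ± 14.3 in Epi, 4.45 ± 5.40 in Neg and 1.67 ± 3.15 in BuSC. Foll minus HGSC was 0.79 with a 95% interval of -0.30 to 1.88 (limma adjusted p = 0.33), whereas Foll minus Epi was 1.97 ± 0.54 (limma adjusted p = 0.0095), and the second lost its call with a pseudocount of 0.1 (adjusted p = 0.121). In DP, 7 of 8 libraries were at 0, where 3 reads would have given 0.357 to 1 RPKM. In BuSC, 5 of 8 were at 0, and the 2 highest had 8.35 RPKM (zone 3 replicate 1) and 4.69 RPKM (zone 4 replicate 2). Defb6 belongs to the beta-defensin family, and its sequence was not compared with those of its relatives. The authors' counting may have split or moved reads among similar genes, and its values are uncertain for that reason. Scd1 likewise has close paralogs (Scd2, Scd3 and Scd4).

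**Figure D2:**
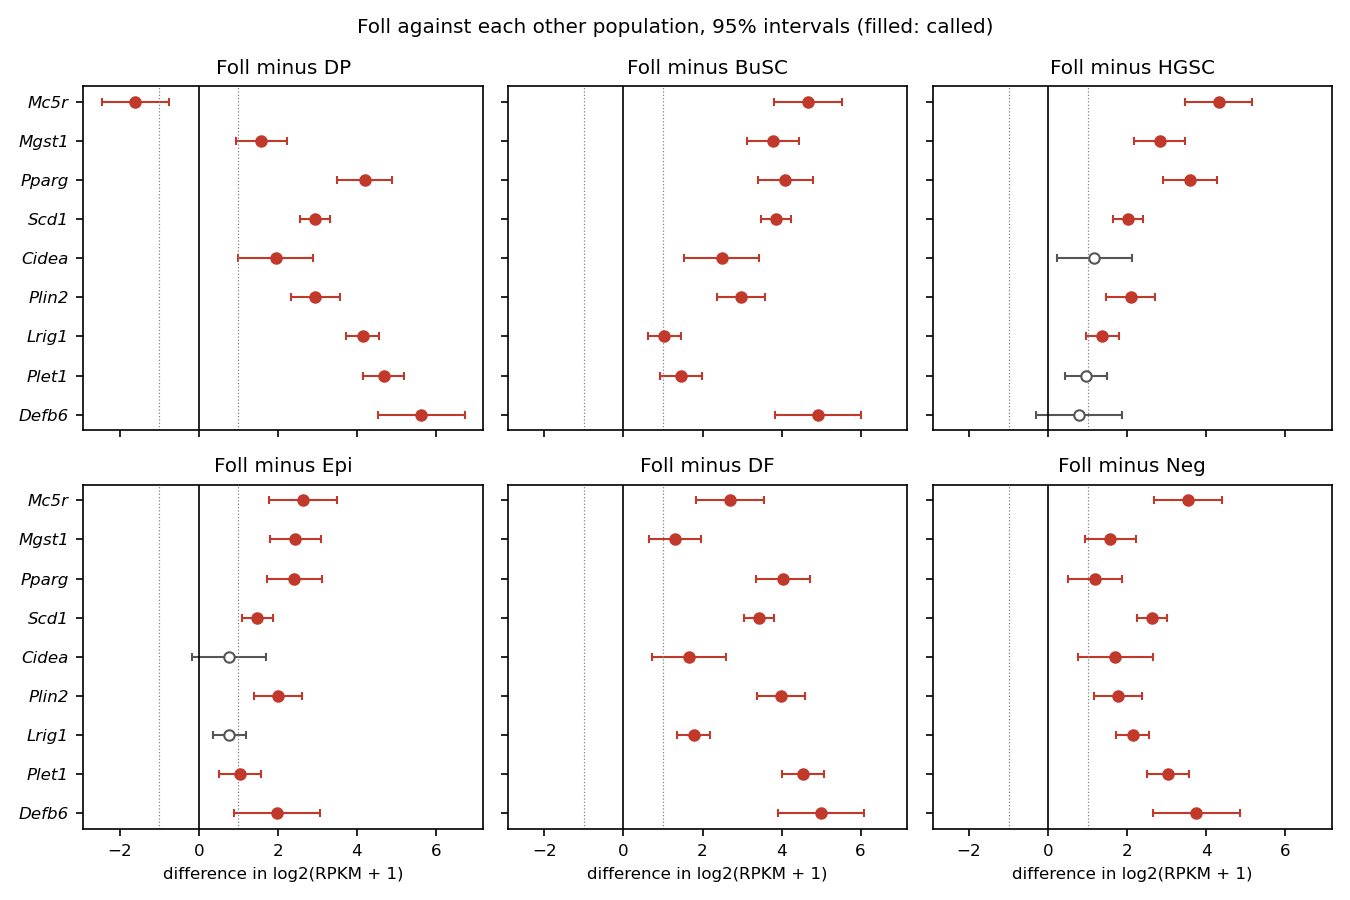
Difference of Foll from each other population on the x axis, in log2(RPKM + 1), for the 9 genes on the y axis. Points are limma estimates over 8 libraries per population, bars are 95% intervals, filled points passed both thresholds and dotted lines mark a difference of 1 in size. All points lie right of 0 except Mc5r against DP, at -1.61.

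Counted by comparison, a call needed an adjusted p (Benjamini-Hochberg, over all genes) under 0.05 and a log2 difference of at least 1 in size. Against Epi, 7 of the 9 genes were called, all higher in Foll, while 5.86% of all genes were called higher in Foll there. Of all genes called between Foll and Epi, 75.3% were higher in Foll, a share of 57.5% after quantile scaling and 62% after median-of-ratios scaling. Against HGSC, 6 of 9 were called, all higher in Foll (6.31% of all genes), and Cidea, Plet1 and Defb6 were not. Cidea against HGSC, at 1.17 (limma adjusted p = 0.067), was called after leaving out any 1 of 5 libraries, Foll zones 1 and 4, HGSC zone 3 and Epi zone 1 replicate 1 or Epi zone 1 replicate 2, with differences of 1.17 to 1.46, and after quantile scaling (1.19, adjusted p = 0.0471).

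Against BuSC all 9 were called higher in Foll (5.88% of all genes), and so were all 9 against DF (32.2%) and all 9 against Neg (8.67%). Against DP, 8 were called higher in Foll (14.6%) and Mc5r was called lower in Foll (12.7%). Of the genes called between Foll and DF, 77.3% were higher in Foll, a share that was 49.2% after quantile scaling and 40.4% after median-of-ratios scaling, and Lrig1 then fell short of the call as Mgst1 did, at 0.98 and 0.76. Between Foll and Neg the share was 36.1%, and it was 46.7% after quantile scaling and 27.5% after median-of-ratios scaling. Without the 4 libraries, Cidea against Neg was 1.31 and missed the threshold (limma adjusted p = 0.0516).

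Every Foll library lay above every Epi library for 4 of the 9 genes, Mgst1, Pparg, Scd1 and Plin2, as it did for 1.09% of all genes. The corresponding number was 5 against HGSC (2.55% of all genes), 7 against BuSC (2.87%), 7 against DP (9.58%), 6 against Neg (5.14%) and 8 against DF (20.9%). The batch field of the labels holds the skin zone, and the 2 cannot be told apart. Within zones, all 49 called differences between Foll and another population had the same sign in all 4 zones. They were called on the mean over these same zones, which favours such agreement, so it is no separate evidence. The share among all called genes was not computed. The genes Mgst1, Pparg, Scd1 and Plin2, 4 of the 9, were called higher in Foll than in each of the 6 other populations, as were 76 genes or 0.454% of all tested. Scd1 and Plin2 kept all 6 calls under every alternative. Mgst1 lost its call against DF and Pparg its call against Neg under the alternatives given above.

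Among the 6 populations other than Foll, 71 of 135 tests of the 9 genes over 15 pairs were called, 52.6%, against 27.4% over all genes in the same pairs. BuSC and HGSC, the stem cell populations of the resting follicle, differed for 2 of the 9 genes, while 5.85% of all genes were called between them. Scd1 was lower in BuSC than in HGSC, at 23.4 and 80.1 RPKM, by -1.83 ± 0.19 (limma adjusted p = 4.73e-09), and Defb6 was lower in BuSC, at 1.67 and 32.8 RPKM, by -4.13 ± 0.54 (limma adjusted p = 4.61e-07). For both genes every HGSC library was above every BuSC library. Cidea, at -1.31 (adjusted p = 0.0636), Mgst1, at -0.96 (adjusted p = 0.0464), and Plin2, at -0.89 (limma adjusted p = 0.0524), were not called. Leaving out 1 library gave calls for Mgst1 (-1.22 to -1.04, BuSC zones 1, 3 and 4 replicate 1 or HGSC zone 4 replicate 2), Cidea (-1.60 to -1.31, either Epi zone 1 library or HGSC zone 3 replicate 2) and Plin2 (-1.06 to -1, BuSC zone 2 replicate 2, BuSC zone 4 replicate 1 or HGSC zone 3 replicate 2). Fibroblast markers summed to 1100 to 8460 RPKM in BuSC, against 34.1 to 246 RPKM in HGSC, and Crabp1 stood at 134 to 1190 RPKM in BuSC, against 0 to 2.04 RPKM in HGSC. The part of other cells in this comparison was not tested.

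Epi had rank 2 or 3 in mean level for 8 of the 9 genes, and rank 5 for Mgst1. Between HGSC and Epi, 2 of the 9 genes were called, Mc5r and Pparg, both lower in HGSC, by -1.68 and -1.17, while 20.7% of all genes were called. Between DP and Epi, 6 genes were lower in DP and Mc5r was higher in DP, while 29.1% of all genes were called in either direction.

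Zones were compared within each population by a moderated F test over the 4 zone means. None of the 63 tests of the 9 genes passed an adjusted p of 0.05 in limma, and 0.708% of all gene tests over the 7 populations did. At an unadjusted p under 0.05 there were 5, Mgst1 in BuSC, HGSC and Epi and Pparg and Plet1 in Epi. With 2 libraries per zone, a change between zones had to be large against the spread between libraries to be called.

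Mgst1 gave 3 of these 5. Over all genes, 1.79% passed the adjusted zone test in Epi. In Epi its 2 libraries had 5.53 and 7.41 RPKM in zone 1, 46.3 and 15 in zone 2, 6.14 and 41.0 in zone 3 and 41.6 and 41.8 in zone 4. Both zone 1 libraries were low and both zone 4 libraries high, and the libraries of zones 2 and 3 disagreed with each other. The zone means were 6.47, 30.7, 23.6 and 41.7 RPKM, with a slope of 0.69 ± 0.20 log2 units per zone (limma adjusted p = 0.0909) and an F test at a limma adjusted p of 0.0852. Zone means in HGSC were 5.57, 20.9, 12.3 and 27.5 RPKM with a slope of 0.56 (adjusted p = 0.601), and in BuSC 4.19, 8.58, 5.44 and 20.3 RPKM with a slope of 0.56 (limma adjusted p = 0.274). The 2 BuSC libraries had 7.46 and 0.920 RPKM in zone 1 and 32.3 and 8.30 RPKM in zone 4. The zone 4 mean in BuSC thus rests largely on replicate 1, which is flagged below.

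In Foll the Mgst1 zone means were 85.1, 90.1, 119 and 147 RPKM, a slope of 0.27 (limma adjusted p = 0.671), and in DF they were 59.0, 36.3, 50.4 and 30.1 RPKM. The slopes did not pass a test of their difference between the populations (limma F test adjusted p = 0.312), nor did those of any of the other 8 genes, while 0.699% of all genes did. The Mgst1 F test in Epi passed without Epi zone 2 replicate 2, Epi zone 3 replicate 1 or Epi zone 3 replicate 2. It also passed without the 4 libraries nearest to another population, a fit in which more of all genes passed the zone test in Epi. Each of these fits leaves 1 library in Epi zone 2 or zone 3, where the libraries disagreed. No spread within that zone entered the test, so its p-values are not given.

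Zone profiles of the other genes differed in shape. Scd1 in Foll had zone means of 256, 304, 359 and 388 RPKM with a slope of 0.20 ± 0.12 (limma adjusted p = 0.554), and Plin2 in Foll 64.8, 96.2, 88.6 and 136 RPKM with a slope of 0.30 ± 0.19 (adjusted p = 0.571). Pparg in Epi stood at 1.32, 6.43, 7.64 and 2.39 RPKM over zones 1 to 4 and Plet1 in Epi at 8.59, 19.7, 19.8 and 7.18 RPKM, both with the higher means in zones 2 and 3 (limma F adjusted p = 0.314 and 0.198). Lrig1 in Foll had means of 54.9, 94.3, 68.0 and 44.3 RPKM (limma F adjusted p = 0.395).

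**Figure D3:**
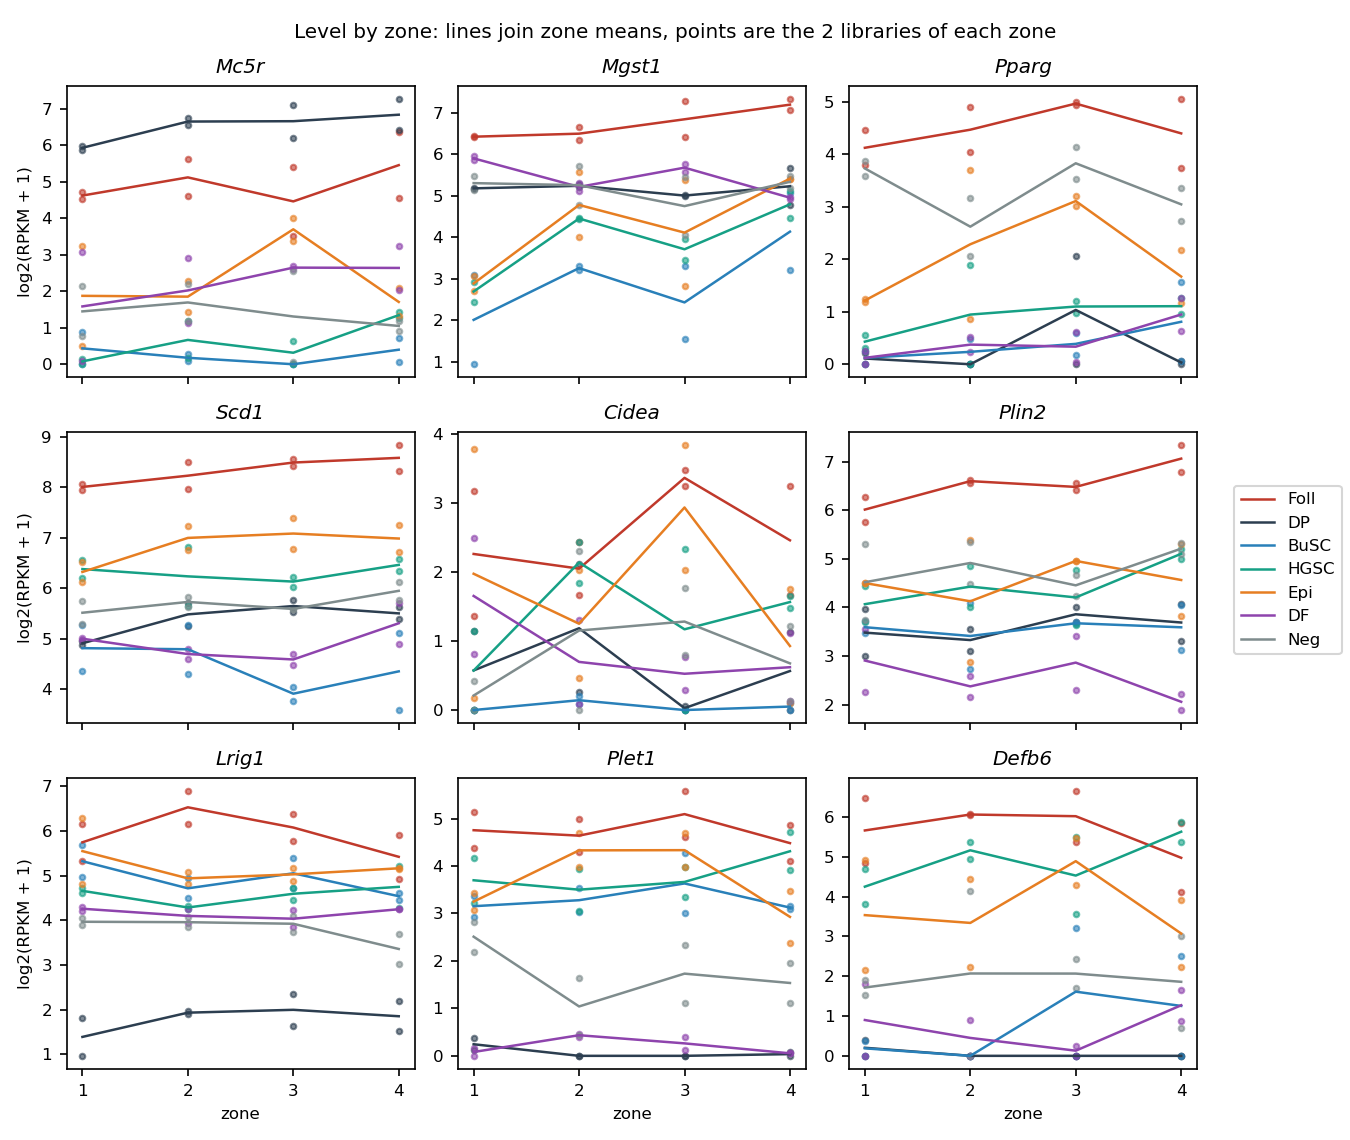
Level of each of the 9 genes as log2(RPKM + 1) on the y axis by zone on the x axis, with a line through the zone means of each population and a point for each library. Foll (red) stays above Epi (orange) in every zone for all 9 genes. Mgst1 is lowest in zone 1 in Epi, HGSC and BuSC.

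Other genes of the same processes were read from lists. Of 20 genes of sebocyte differentiation and sebum lipids, 18 were tested and 8 were called higher in Foll than in Epi, none lower. The shares of all genes were 5.86% higher and 1.92% lower. The median difference was 0.85 over the 18 against 0.09 over all genes. The 4 largest were Elovl3, an elongase of very long chain fatty acids, at 12.5 ± 8.03 RPKM in Foll and 5.36 ± 11.1 RPKM in Epi (difference 1.98), Soat1, which makes cholesterol esters (1.57), Fa2h, which hydroxylates fatty acids (1.46), and Dgat2, which completes triglycerides (1.44). Fa2h averaged 86.4 ± 21.4 RPKM in Foll and 34.2 ± 17.0 RPKM in Epi. After quantile and median-of-ratios scaling 7 of the list were called higher, and 6 without the 4 libraries nearest to another population. The median difference of this list was also above 0 against the other 5 populations, 1.31 against Neg to 2.33 against DF, with 11 to 14 called higher in Foll, and 1 called lower against DP and against BuSC. Over all genes, 5.88% (BuSC) to 32.2% (DF) were called higher in Foll in these comparisons. The median of all genes was 0.03 against Neg and 0.51 against DF.

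Of 20 tested PPAR and lipid droplet genes, 8 were called higher in Foll than in Epi (6 or 7 under those alternatives) and 1 lower. The shares of all genes were 5.86% and 1.92%, and the median of the list was 0.60. Pdk4, a kinase that spares glucose when fat is burnt, averaged 24.4 ± 18.3 RPKM in Foll and 2.34 ± 4.79 RPKM in Epi (difference 3.29, limma adjusted p = 1.7e-07). Fabp4, a fatty acid carrier of fat cells and endothelium, averaged 9.79 ± 6.12 RPKM in Foll and 0.0837 ± 0.102 RPKM in Epi (2.97), and Angptl4, a PPAR target that inhibits lipoprotein lipase, 31.5 ± 13.7 RPKM in Foll and 5.38 ± 4.78 RPKM in Epi (2.66). Endothelial marker sums were higher in Foll as well, as given above, and their part in the Fabp4 level was not tested. The fourth, Cebpb, a transcription factor of fat cell differentiation, differed by 1.81. The gene called lower in Foll was Plin3, another droplet coat gene, at 7.54 ± 4.06 RPKM in Foll and 15.9 ± 6.12 RPKM in Epi (-1.15, limma adjusted p = 0.0167). Against the other 5 populations 6 to 8 of the 20 were called higher in Foll, where 5.88% (BuSC) to 32.2% (DF) of all genes were. Lower in Foll were 3 against Neg, where the median was -0.09, and 0 or 1 against the rest. Of all genes, 15.3% were called lower in Foll against Neg, so those 3 are near the share of all genes. The 8 called higher were against DF, where 32.2% of all genes were called higher in Foll. There the median was 0.625 for the list and 0.506 for all genes, so the list stood near all genes.

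Of 12 tested desaturase and elongase genes, 5 were called higher in Foll than in Epi and none lower, against 5.86% and 1.92% of all genes. The list had a median of 0.90, although 1 gene was called lower after median-of-ratios scaling and without the 4 libraries. Fads1, a desaturase of polyunsaturated fatty acids, averaged 11.4 ± 7.76 RPKM in Foll and 2.93 ± 3.66 RPKM in Epi (difference 1.85), and Elovl6, which lengthens palmitate, 103 ± 27.9 RPKM in Foll and 42.2 ± 12.6 RPKM in Epi (1.27). Elovl3 belonged to this list as well, and the fourth was Scd3, at 3.10 ± 2.06 RPKM in Foll and 0.675 ± 0.982 RPKM in Epi (1.32). Against the other 5 populations the list was split. Of the 12 genes, 5 were called higher in Foll and 4 lower against DP, 4 and 2 against BuSC, 4 and 3 against HGSC, 5 and 3 against DF, and 5 and 4 against Neg. Against DF, 32.2% of all genes were called higher in Foll and 9.47% lower, so the 5 called higher there are near the share of all genes. Fads1 was called lower in Foll against each of these 5, with means of 103 RPKM in DP (difference -3.31), 32.7 in BuSC (-1.65), 38.7 in HGSC (-1.87), 33.9 in DF (-1.73) and 45.1 in Neg (-2.11, limma adjusted p of 1.29e-05 or less in the 5).

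Of 10 upper follicle genes, 3 were called higher in Foll than in Epi and 1 lower, with a median of 0.39. The shares of all genes were 5.86% higher and 1.92% lower. Krt79 (difference 1.63), Prdm1, a transcriptional repressor (1.44), and Gata6, a transcription factor of the gland duct (1.37), were higher. Prdm1 averaged 4.55 ± 2.74 RPKM in Foll and 1.01 ± 0.976 RPKM in Epi, and DP held far more, with a mean of 165 RPKM. Without the 4 libraries 2 of the list were lower. Klf5, an epidermal transcription factor, was lower, at 102 ± 43.5 RPKM in Foll and 261 ± 60.5 RPKM in Epi (-1.44, limma adjusted p = 1.01e-05).

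Of 8 tested Mgst and glutathione genes, Gsta3 (difference 2.32) and Gclc (1.30), which begins glutathione synthesis, were called higher in Foll than in Epi and none lower. Among all genes, 5.86% were called higher in Foll in this comparison and 1.92% lower. The Mgst1 relatives Mgst2, at 6.84 ± 4.01 RPKM in Foll and 5.64 RPKM in Epi, and Mgst3, at 33.3 ± 23.2 RPKM in Foll and 25.5 RPKM in Epi, were not called. None of the 6 Lrig and EGF receptor family genes was called between Foll and Epi, and 1 was lower in Foll after either scaling or without the 4 libraries. Egfr, the receptor that Lrig1 restrains, averaged 72.8 ± 12 RPKM in Foll and 54.7 RPKM in Epi. None of the 4 tested melanocortin genes was called between Foll and Epi. Mc2r, the ACTH receptor and a neighbour of Mc5r on chromosome 18, had its highest mean in DP, 2.69 RPKM, against 0.402 RPKM in Foll. Among 7 other beta-defensin genes only Defb1 passed the filter, at 4.64 ± 3.84 RPKM in Foll and 8.60 RPKM in Epi (difference -0.49, limma adjusted p = 0.323), a gene called lower in Foll without the 4 libraries (-1.19), and Defb3 was listed at 0 in all 56 libraries.

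Likeness of pattern was measured by Pearson's r of log2(RPKM + 1) over the 28 means of population and zone, against 12918 genes. These points share libraries and sort, so r is a description. Pparg and Plin2 had r = 0.84, Scd1 and Plin2 0.86, Lrig1 and Plet1 0.81 and Plet1 and Defb6 0.82. Mc5r was least like the others, with r between -0.40 (Lrig1) and 0.60 (Mgst1).

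Genes most like Mc5r were Thrb (r = 0.93), Prlr (0.93), Cebpa (0.90), Ackr4 (0.89) and Kat6b (0.87). For Mgst1 they were Dhrs7 (r = 0.83), Trp53inp2 (0.78), Whamm (0.74) and Aco1 (0.73). For Pparg they were Akr1c18 (r = 0.92), Oxtr (0.88), Kank4 (0.87), Adgre4 (0.86) and Tmcc3 (0.86).

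Scd1 was most like Secisbp2l (r = 0.94), Far2 (0.93), Ripply3 (0.93) and Tlcd3b (0.92), and Plin2 was most like Cers4 (r = 0.94), Ermp1 (0.92), Secisbp2l (0.92) and Prxl2a (0.90). Cidea was most like Scd1 itself (r = 0.80), Sprr1a (0.79), Defb6 (0.78), Elovl4 (0.77) and Secisbp2l (0.77).

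Lrig1 was most like Hspa4l (r = 0.91), Clip1 (0.91), Oxct1 (0.90), Nfix (0.90) and Cpox (0.90). Plet1 was most like Bcl11a and S100a14 (both r = 0.96), Cdcp1 (0.96), Edaradd (0.96) and Mpzl2 (0.96). Defb6 was most like Sprr1a (r = 0.92), Cst6 (0.91), Aadac (0.90) and Edar (0.88).

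Within the 8 Foll libraries, the levels of each pair of genes were compared. Of 36 pairs, 18 had a positive Pearson r, the median r was -0.01 and none passed an exact permutation test after Benjamini-Hochberg adjustment, with 2 at an unadjusted p under 0.05. Lrig1 and Defb6 had the highest r, 0.87 (exact two-sided permutation p = 0.00459, adjusted 0.165). Spearman's rho was 0.93 (exact p = 0.00223, adjusted 0.0804), and r was 0.97 without the 2 libraries farthest from the median of Lrig1. Both genes were higher in replicate 1 than in replicate 2 of every zone. Lrig1 stood at 59.22 to 118.1 RPKM in replicate 1 and at 29.45 to 70.49 RPKM in replicate 2. Defb6 stood at 56.61 to 100.2 and at 16.24 to 65.02 RPKM. Sums of interfollicular epidermis markers in Foll also split by replicate, as given below. The permutation test took no account of this split, and whether the relation holds apart from it was not tested. Scd1 and Plin2 had r = 0.76 (exact permutation p = 0.0267, adjusted 0.481) and rho = 0.57 (exact p = 0.151, adjusted 0.72), and r was 0.22 without the 2 libraries farthest from the median of Scd1, so the relation rests on those libraries.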

How the data were processed

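Bulk RNA-seq libraries were made from sorted cells. Per the labels' protocols, 6 ng of RNA (RIN 8.8 or higher) was amplified and 100 ng of cDNA entered each library. The deposited values are RPKM per gene, computed by the authors. Per the submitters' processing notes the build was mm10, with STAR 2.4.0, featureCounts, limma, edgeR and DESeq2. No source used here states strand or read length, and antisense reads cannot be told apart.

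Low RPKM values were whole multiples of 1 read for 99.98% of genes above 0 (22229 of 22233, tolerance 0.02 reads), which gave library totals. A count-based alternative (voom) ran on these reads. Limits of 3 reads cover counting error only.

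limma 3.58.1 (R 4.3.3) was fitted to log2(RPKM + 1) over 16731 genes with 28 group means, an abundance trend and 28 residual degrees of freedom. Differences on this scale understate changes of low genes. Tests were two-sided, adjusted by Benjamini-Hochberg over all genes. SDs over 8 libraries include the 4 zones, and SEs rest on the spread between replicates within zones. Simulated data with known changes were used to test the fit. Members and lists were chosen with earlier results of these data known. Named list genes are up to 4 per list with the largest called difference Foll minus Epi, plus genes at 0 in all libraries. Any other gene was chosen after its values were seen. A few genes picked this way are left unreported. Pseudocount, filter, scaling, model, replicate block and left-out libraries were varied.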

Additional observations from a re-analysis of the deposited data

Results flagged for a closer look

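In 14 of 63 sets of 8 libraries (9 genes in 7 populations), the highest or the lowest library stood apart from the other 7 by more than Dixon's 95% criterion allows (on RPKM). Chance flags about 1 in 20 sets with normal spread, and RPKM values near 0 are skewed.

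None of the 14 was in Foll. For Pparg the highest library was 3.19 RPKM in DP (zone 3 replicate 1, next 0.164), 1.94 in BuSC (zone 4 replicate 1, next 0.513) and 1.4 in DF (zone 4 replicate 2, next 0.546). BuSC zone 4 replicate 1 also held the highest Mgst1, 32.3 RPKM (next 8.96), and DF zone 4 replicate 2 the highest Scd1, 51.3 RPKM (next 31.5). Cidea reached 3.31 RPKM in DP (zone 2 replicate 2) and 4.64 in DF (zone 1 replicate 1).

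Lrig1 reached 77.1 RPKM in Epi (zone 1 replicate 2, next 35.1) and 36.4 in HGSC (zone 4 replicate 1), and was lowest in Neg at 7.1 RPKM (zone 4 replicate 1). Plet1 reached 18.2 RPKM in BuSC (zone 3 replicate 2) and 0.293 in DP (zone 1 replicate 2). Defb6 reached 16.6 RPKM in Neg (zone 2 replicate 1) and 0.324 in DP (zone 1 replicate 1), the only DP library above 0.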

How the results depend on the processing

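No difference between Foll and another population reversed its sign in the 9 genes under any alternative run, leaving out each library included. Over all 21 pairs, 18 of the 189 differences reversed under at least 1 alternative, and none of these was called with either sign. Of them, 9 reversed after median-of-ratios scaling and 8 after quantile scaling. Lrig1 in HGSC minus DF was 0.41, and -0.72 after median-of-ratios scaling (limma adjusted p = 0.00377, under the size threshold) and -0.47 after quantile scaling. Lrig1 in BuSC minus DF was 0.75, against -0.29 and -0.05 after those scalings, and Scd1 in DP minus DF was 0.49, against -0.38 and -0.11. The number called stayed within 8 and 9 against DP, 6 and 7 against HGSC, 6 and 8 against Epi, 7 and 9 against DF and Neg, and was 9 in each alternative against BuSC, where leaving out 1 library gave 8 to 9. Leaving out 1 library gave 6 to 8 against HGSC and 6 to 7 against Epi. Over the 15 other pairs the count was 70 to 79 (main 71), and 68 to 75 with 1 library left out. The count of zone calls was 0, and 1 (Mgst1 in Epi) without the 4 libraries nearest to another population; leaving out each library gave 0 to 1. The count of trend differences was 0 throughout.

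Replicate numbers are shared between groups. Between different populations of the same zone, deviations of same-numbered libraries from their group means correlated at -0.028 to 0.085 over all genes. These values cannot tell whether same-numbered libraries came from the same animals or sort. In Foll, interfollicular epidermis markers summed to 1259 to 2234 RPKM in replicate 1 and to 2636 to 6369 RPKM in replicate 2. The cause was not tested. With the replicate as a block, calls between Foll and Epi were 1313 against 1303, and the counts of the 9 genes were 9 against DP, 6 against HGSC and 7 against Epi, as without it.

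Over all genes, zone calls depended on the setting: 35 to 226 in BuSC (main 60), 23 to 103 in DF (33), 22 to 151 in DP (72), 125 to 1361 in Epi (299), 38 to 1321 in Foll (173), 10 to 61 in HGSC (23), 57 to 407 in Neg (169) and 14 to 265 for trend differences (117). BuSC minus HGSC had 978 calls, and 1601 with voom; DP minus DF had 5067, 3100 after quantile and 3130 after median-of-ratios scaling; DF minus Neg had 4369, 2764 and 2858 after those scalings, and 6654 with voom. Cidea for BuSC minus HGSC was -3.16 with a pseudocount of 0.1 and -4.46 with voom, both called. The cause was not tested. Depth limits the lowest levels: the median was 0 reads for Cidea and Defb6 in BuSC and for Pparg, Plet1 and Defb6 in DP. It was 1 read for Mc5r in BuSC and 3 reads for Cidea in DP and for Defb6 in DF.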
